A study of Mus musculus with 2 samples.

Results

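The imprinted Dlk1-Dio3 domain of mouse chromosome 12 carries a long array of microRNA genes that begins with Mir379 and runs past Mir410. The array was taken as every microRNA gene of the GENCODE vM21 annotation that lay fully between positions 109705000 and 109750000 of chromosome 12 in build mm10, on either strand. This rule used coordinates only and gave 44 of the 2202 microRNA genes in each deposited table, 39 on the plus strand and 5 on the minus strand. The first member was Mir379, which starts at 109709060, and the last was Mir3072, which ends at 109747960, so the array spanned 38.9 kb. Its counts came from microRNA sequencing of gastrocnemius, a large calf muscle, of male B6CASTF1/J mice at 14 days of age. B6CASTF1/J mice are the first-generation cross of C57BL/6J with CAST/EiJ, obtained here from The Jackson Laboratory, and the labels name no treatment or engineered allele. The single group held 2 libraries, called replicate 1 and replicate 2 after their labels. Both carried the same donor identifier and a description naming several males, without saying whether a replicate was 1 animal or a pool, so p-values and SDs reflect only how these 2 samples differ, and part of that may be technical. The series held no other tissue, age or sex, and nothing below compares conditions.

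MicroRNAs are short RNAs cut from a hairpin precursor. The retained arm pairs with messenger RNAs mainly through its seed, bases 2 to 8, and lowers their translation or stability. The genes of the array are expressed from the maternally inherited chromosome, as parts of long noncoding transcripts of which Mirg is the annotated one, and the array is found in placental mammals. The transcription factor MEF2 drives the array in neurons and also acts on the domain in regenerating muscle. Mice that inherit a deletion of the array from their mother show impaired metabolic adaptation after birth.

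The annotation only partly matched the name Mirg for the array. Mirg, a noncoding RNA gene on the plus strand, is annotated from 109729764 to 109749460, and its start lies 20.7 kb downstream of the start of Mir379. Of the 44 members, 29 lay upstream of that start, outside any annotated part of Mirg, and 15 lay within it. The array also reached beyond Mir410, because Mir3072 follows it at a distance of 4082 bases.

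Mature sequences for 39 of the 44 members were found in the RefSeq table of build GRCm38.p6, which is the same sequence as mm10. The 5 members with no entry there were Gm25750, Gm25252, Gm44322, Gm27379 and Gm24321. A further 5, Mir376c, Mir487b, Mir539, Mir485 and Mir453, had 1 mature sequence only, so their other arm is neither printed nor searched below. The sequences of the 10 members with the most counts are shown first, because they held most of the array's signal, and each is written 5′ to 3′ with its seed in capitals.
miR-411-5p: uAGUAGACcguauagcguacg
miR-411-3p: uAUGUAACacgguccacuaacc
miR-379-5p: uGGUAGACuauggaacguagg
miR-379-3p: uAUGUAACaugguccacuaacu
miR-487b-5p: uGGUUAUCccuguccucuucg
miR-541-5p: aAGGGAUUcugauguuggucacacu
miR-541-3p: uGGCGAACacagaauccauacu
miR-382-5p: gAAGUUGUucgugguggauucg
miR-382-3p: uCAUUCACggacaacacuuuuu
miR-299a-5p: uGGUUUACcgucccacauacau
miR-299a-3p: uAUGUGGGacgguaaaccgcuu
miR-381-5p: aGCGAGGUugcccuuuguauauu
miR-381-3p: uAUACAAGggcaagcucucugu
miR-376c-5p: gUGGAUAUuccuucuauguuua
miR-369-5p: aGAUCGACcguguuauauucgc
miR-369-3p: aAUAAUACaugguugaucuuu
miR-154-5p: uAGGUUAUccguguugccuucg
miR-154-3p: aAUCAUACacgguugaccuauu

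The plus-strand members had 71 mature sequences in the table with 65 distinct seeds, so most mature sequences of the array had a seed of their own. The sharing found was always between a pair of hairpins, in 7 groups that took in 12 plus-strand members. Sharing by arms missing from the table would not be seen. None of these 7 seeds occurred in any of the 1606 mature sequences of other mouse hairpins in the table. The leading members were part of this sharing. Mir411 and Mir379 have the same 3′ arm seed, AUGUAAC, and their 3′ arms match at 20 of 22 bases. Their 5′ arms have different seeds, AGUAGAC and GGUAGAC. Mir1193 shares the 5′ arm seed of Mir379, and Mir376b shares that of Mir376c, with 21 of 22 bases the same in the 5′ arms of the latter pair. Both partners are shown for comparison with the lines above, again with the seed in capitals.
miR-1193-5p: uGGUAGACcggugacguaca
miR-376b-5p: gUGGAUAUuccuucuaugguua

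The remaining shared seeds were AUGUGGG in Mir299a and its opposite-strand partner Mir299b, GGUUGUC in Mir494 and Mir410, GGUUGCC in Mir453 and Mir496a, and GGUUGAC in Mir1197 and Mir758. Each deposited count covers both arms of a hairpin, so the level of a seed could not be read from it. The sums below are therefore over whole hairpins. The pair with AUGUAAC, Mir411 and Mir379, summed to 82240 CPM (the count scaled to a common library total) in replicate 1 and 72051 in replicate 2. The pair with GGUAGAC, Mir379 and Mir1193, summed to 23142 and 21593 CPM, and the pair with UGGAUAU, Mir376c and Mir376b, to 2721 and 2475 CPM. At the other end, the pair with GGUUGAC, Mir1197 and Mir758, summed to 3.28 and 0.904 CPM.

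Sharing was also looked for at any position, beyond the seed. The seed is itself among these positions, so the most widely shared word cannot be in fewer hairpins than the most shared seed. Every stretch of 7 bases in the 71 mature sequences was counted, on the RNA strand only, and 4 words were found in the most members, with 5 hairpins each. One was GGUCCAC. Another was GUUGCCC. The last pair overlap, since GUUGACC begins 1 base after the start of the word GGUUGAC, and only the latter is shown. Each of these words was thus in 7.04% of the array's mature sequences, and in none of the 1606 others. Of the plus-strand members, 13 held at least 1 of the 3 words printed in capitals, in 15 mature sequences. The words were picked for being frequent in the array, so their absence elsewhere is a description of it. The first of them sat in the same place, from base 11, in the 3′ arms of Mir379, Mir411, Mir380 and Mir758, and from base 8 in that of Mir412, as the capitals show.
miR-379-3p: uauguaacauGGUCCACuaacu
miR-411-3p: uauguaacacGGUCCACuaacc
miR-380-3p: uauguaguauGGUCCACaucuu
miR-758-3p: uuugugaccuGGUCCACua
miR-412-3p: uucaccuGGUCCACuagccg
The same word was therefore carried by the most abundant member, Mir411 at 55294 CPM, and by Mir758 at 1.55 CPM. The word GGUUGAC, in capitals below, was the seed of Mir1197 and Mir758. It began at base 3 in Mir380, base 8 in Mir134 and base 11 in Mir154.
miR-1197-5p: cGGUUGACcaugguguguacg
miR-758-5p: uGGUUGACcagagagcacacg
miR-134-5p: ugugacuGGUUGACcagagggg
miR-154-3p: aaucauacacGGUUGACcuauu
miR-380-5p: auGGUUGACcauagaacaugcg
The third word, GUUGCCC, lay in 5′ arms, at bases 3 to 5 for its first letter in Mir543, Mir496a, Mir495 and Mir377 and at base 7 in Mir381.
miR-543-5p: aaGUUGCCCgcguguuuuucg
miR-496a-5p: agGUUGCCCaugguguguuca
miR-495-5p: gaaGUUGCCCauguuauuuuucg
miR-377-5p: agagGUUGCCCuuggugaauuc
miR-381-5p: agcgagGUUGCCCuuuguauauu

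Replicate 1 held 10056843 reads and replicate 2 held 8189059, of which 27.3% and 27.0% were counted on a microRNA gene's own strand. Reads that mapped to several loci made up 44.0% and 52.1%, and they entered no gene's count. CPM is used here for the own-strand count scaled by all own-strand counts on microRNA genes, 2743657 in replicate 1 and 2211254 in replicate 2. For a gene without a count, the floor was set at 3 counts, or 1.09 CPM for replicate 1 and 1.36 CPM for replicate 2. Intervals are 95% Wilson intervals. They and these floors cover counting error only, since reads copied by PCR are not independent molecules. The tissue label was checked against 9 muscle-enriched microRNA genes, which all had counts and together held 6.95% and 6.92% of them. Nearly all of that was Mir206, at 68288 and 67909 CPM. The others ran from Mir133a-2, at 1.82 and 1.81 CPM, to Mir486, at 572 and 650 CPM. Genes with copies, such as Mir1a-1 and Mir1a-2, may have lost reads that map to several loci.

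The array held 380898 of the assigned counts in replicate 1 and 280285 in replicate 2. These were 13.9% (interval 13.8 to 13.9) and 12.7% (12.6 to 12.7) of all microRNA counts, with a mean of 13.3% ± 0.854 (SD, n = 2). Reads mapped to several loci are in neither sum, and genes with copies lose such reads. The array's share and its members' ranks among all genes therefore hold for these counts, and could differ among all microRNA reads. The share was higher in replicate 1, by more than counting error alone. In tissue as a whole, fewer cells of a type and less RNA per cell cannot be told apart, so a share says nothing of the level in any 1 cell type.

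Counts were present for 38 of the 44 members, against 629 of all 2202 genes. At least 10 CPM in both libraries was reached by 33 members, which is 75% of the array, against 258 of all genes, or 11.7%. All 33 were on the plus strand. Such detection was not particular to the array. Of the 23 other microRNA genes between Dlk1 and Dio3, 19 had counts and 15 reached 10 CPM in both libraries. At 100 CPM there were still 32 members in both libraries, at 1000 CPM 11, and at 10000 CPM 3. Over the plus-strand members the median was 556 CPM (replicate 1) and 460 CPM (replicate 2). Of the 50 most abundant microRNA genes, 8 were members, and of the 100 most abundant, 17.

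Mir411, the second gene of the array (109710175 to 109710256), had the highest counts, with 59680 CPM in replicate 1 and 50909 CPM in replicate 2. It alone held 41.6% ± 2.00 of the array and ranked 5 among all genes. Mir379, the first gene (109709060 to 109709125), stood at 22559 and 21143 CPM. Its lower library lay above the higher library of every member but Mir411, so the first positions of the order did not overlap. Mir487b (109727333 to 109727414), one of the microRNAs of this domain that restrain new vessel growth in ischaemic hindlimb, stood at 15489 and 15589 CPM. Its CPM had a coefficient of variation of 0.459%, the lowest of the 33 tested members, whose median was 6.75%. With the library sizes used for the comparison further below, it was called lower in replicate 2, at a log2 ratio of −0.04.

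Mir541 (109742409 to 109742498) stood at 9237 and 9671 CPM, and Mir382 (109733771 to 109733846) at 6395 and 6923 CPM. Both lie within Mirg and were the most abundant members there. Mir299a (109710638 to 109710700) followed with 4907 and 4227 CPM. The 5 members from Mir411 to Mir382 together held 81.7% of the array's counts in replicate 1 and 82.2% in replicate 2, a mean of 81.9% ± 0.410. The array's signal was thus concentrated, since the 10 most abundant members held 92.1% ± 0.158 and the 20 most abundant 97.6% ± 0.00654.

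The next members lay close together. Mir381, which acts with Mir134 and Mir329 in activity-dependent growth of dendrites, stood at 2975 and 2372 CPM. Mir376c, of a family whose precursors undergo adenosine-to-inosine editing, stood at 2579 and 2344 CPM. The libraries of these overlapped, so their order is not resolved. Mir369, whose 3′ arm can raise translation of a cytokine mRNA in resting cells, stood at 1962 and 1834 CPM. Mir154 stood at 1875 and 1826 CPM, again overlapping its neighbour. Mir409 at 1543 and 1256 CPM and Mir329 at 897 and 1028 CPM closed the 12 most abundant members.

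**Figure D1:**
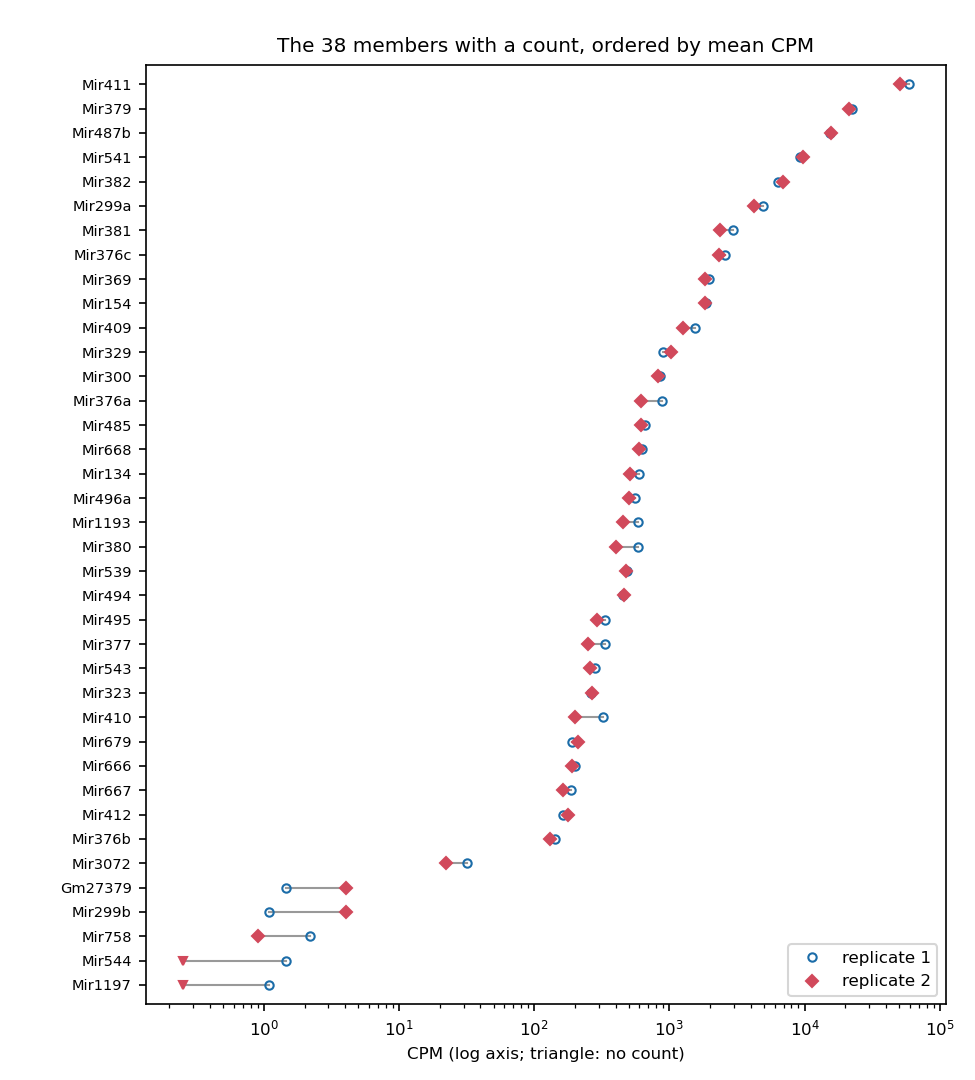
The 38 members with a count are ordered from top to bottom by mean CPM; the horizontal axis is CPM on a log scale, circles are replicate 1, diamonds replicate 2, and triangles mark a library with no count. Mir411 at the top stands apart, the members from Mir300 to Mir410 crowd together, and a gap separates Mir3072 and the last 5 members from the rest.

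Of the 37 adjacent pairs in the order, 16 were separate, meaning that the lower library of the higher member exceeded the higher library of the lower member, and 21 overlapped. The order was clear at the top, where 9 of the 11 pairs among the 12 most abundant members were separate. Below Mir329 most neighbours did not differ beyond their spread. The 20 members from Mir300 to Mir376b had means between 136 and 838 CPM. Taken in genomic order, examples were Mir380 at 587 and 403 CPM, Mir323 at 261 and 267, Mir494 at 452 and 460, and Mir679 at 190 and 212. The next were Mir1193 at 582 and 450 CPM, Mir666 at 201 and 192, Mir543 at 281 and 259, and Mir495 at 332 and 292. The libraries were close for Mir323 and Mir494 and apart for Mir380 and Mir1193.

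Some members best known from neurons fell in this middle range. Mir134, which limits the size of dendritic spines through Limk1, stood at 600 and 510 CPM. Mir485, which acts on a synaptic vesicle protein, stood at 655 and 612 CPM. Mir410, known in regenerating muscle for acting on the Wnt inhibitor Sfrp2, stood at 322 and 200 CPM, so that Mir411 exceeded it 220-fold ± 49.0. These members were picked for their known roles, with their values in view.

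Few members with counts lay below 100 CPM. Mir3072, the last gene of the array, stood at 31.7 and 22.2 CPM. The other members with counts had 9 or fewer in a library: Gm27379 with 4 and 9, Mir299b with 3 and 9, Mir758 with 6 and 2, Mir544 with 4 and 0, and Mir1197 with 3 and 0. At so few counts, no order among them could be given. On the plus strand, Mir654 and Mir453 had no count in either library, so that each was at most at the floors given above.

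Along the chromosome, high and low members were interleaved. Cut into 3 equal stretches, the array held 64.4% ± 1.78 of its counts in the stretch nearest Mir379, 23.6% ± 1.16 in the middle, and in the last 11.5% in replicate 1 and 12.4% in replicate 2. The medians of the members with a count did not follow that order, with 312 CPM over 15 genes in the first stretch, 634 CPM over 13 in the middle and 530 CPM over 9 in the last. The decline in the sums came with Mir411 and Mir379, which both lie in the first stretch. Across the 37 plus-strand members with a count, mean CPM and position had a Spearman rho of −0.02, as a description of genes that share their libraries.

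**Figure D2:**
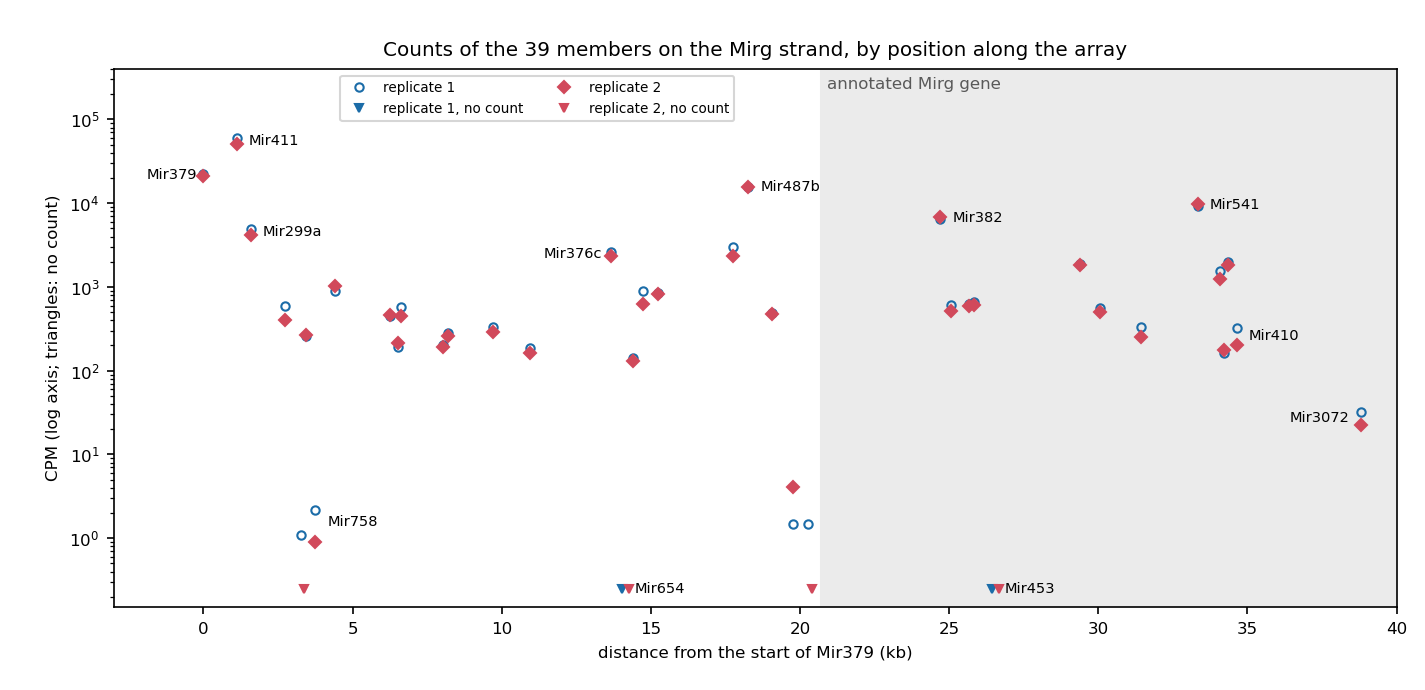
Each of the 39 plus-strand members is placed by the distance of its start from that of Mir379 in kb (horizontal axis) and by its CPM on a log scale (vertical axis), with circles for replicate 1, diamonds for replicate 2 and triangles for no count; the shaded area is the annotated Mirg gene. High members occur in both the unshaded and the shaded area next to much lower ones, with Mir411, Mir379 and Mir487b in the unshaded area and Mir541 and Mir382 in the shaded one.

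The members upstream of the annotated start of Mirg held 82.5% of the array's counts in replicate 1 and 80.8% in replicate 2, a mean of 81.6% ± 1.23. The 15 members within Mirg held the other 18.4% ± 1.23. In that gene, 6 members lay in introns and held 9.99% ± 0.667 of the array, led by Mir541. A further 5 lay partly in an annotated exon and partly outside all exons of Mirg, and held 7.07% ± 0.658, led by Mir382. The 4 that lay in exons, Mir134, Mir485, Mir377 and Mir410, held 1.31% ± 0.0958.

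Adjacent genes of the array often differed widely. The 38 neighbouring pairs on the plus strand were 20 to 4368 bases apart, with a median gap of 556. In 28 pairs both genes had more than 3 counts in each library, and the higher exceeded the lower by a median of 4.50-fold. The ratio reached 10-fold in 7 pairs and was under 2-fold in 7 others. Both genes of a pair were read from the same library, so library size does not enter the ratio. The pairs described next were chosen after their values were seen, as examples of wide and narrow ratios. The widest of the 28, Mir539 over Gm27379 at 335-fold and 117-fold, rests on the 4 and 9 counts of Gm27379.

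Mir411 lies 381 bases before Mir299a and exceeded it 12.1-fold ± 0.0830. Mir487b, 714 bases before Mir539, exceeded it 31.8-fold in replicate 1 and 32.8-fold in replicate 2. Both ratios differed little between the libraries. Mir369 exceeded Mir412, which ends 49 bases before it, 11.2-fold ± 1.22. Mir541 exceeded Mir377 by 27.8-fold and 38.7-fold across 1831 bases, a wider spread. By contrast, Mir485 and Mir668, 104 bases apart, had a ratio of 1.05 and 1.02, and Mir668 and Mir134 one of 1.04 and 1.17.

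The plus-strand genes without a count lay among genes with counts. Mir654 sits between Mir376c, 414 bases before it, and Mir376b, 156 bases after it. Against the floor of 3 counts per library, Mir376c was at least 2359-fold higher than Mir654 in replicate 1 and at least 1728-fold higher in replicate 2. Mir376b, itself one of the lower members at 136 CPM, was at least 130-fold and 96.3-fold higher. Mir453 lies between Mir485 and Mir154, which were at least 599-fold and 1715-fold higher in replicate 1 and at least 451-fold and 1346-fold higher in replicate 2. No hairpin of the table carries the mature sequence of Mir654 or Mir453 at a second microRNA locus.

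Members with nearly the same arm could stand at unlike levels. The 5′ arms of Mir376c and Mir376b differ at a single base, and Mir376c exceeded Mir376b 18.2-fold and 17.9-fold. The 3′ arms of Mir300 and Mir381 match at 19 of 22 bases, and Mir381 exceeded Mir300 by 3.50-fold and 2.88-fold. The 3′ arms of Mir543 and Mir495 match at 18 of 22, and these hairpins stood at a ratio of 1.18 and 1.13 in favour of Mir495. Stretches of 20 bases or more were shared with another microRNA locus by 5 members, in the pairs Mir411 with Mir758, Mir376c with Mir376b and Mir376b with Mir487b. Reads from such stretches may map to both places and then be missing from both counts, which makes the levels of these 5 uncertain. No member had a mature sequence identical to one at another microRNA locus.

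The 36 plus-strand hairpins found in RefSeq ran from 61 to 121 bases with a GC content of 29.1% to 72.3%. Over the 34 hairpins with a sequence and a count, mean CPM had a Spearman rho of −0.30 with GC content, −0.21 with length and 0.08 with the predicted folding energy per base. These are weak relations across genes of the same libraries. The lowest GC, 29.1%, belonged to Mir376c at 2461 CPM and the highest, 72.3%, to Mir3072 at 26.9 CPM. Of the 5′ mature sequences 12 of 36 began with U, and of the 3′ ones 18 of 34.

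The 5 minus-strand members each overlap a plus-strand one. Mir299b lies opposite Mir299a, Gm25750 opposite Mir380, Gm25252 opposite Mir376a, Gm44322 opposite Mir539 and Gm24321 opposite Mir409. Only Mir299b had counts, 3 in replicate 1 and 9 in replicate 2, while its partner Mir299a had 13463 and 9346. The other 4 minus-strand members had no count in either library, which at this depth allows up to 3. The reads counted at these loci were thus almost wholly on the plus strand.

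The choice of column decided whether these loci were seen at all. The 5 plus-strand partners held 23069 and 15439 counts on their own strand, which was 5.78% ± 0.388 of the array. In the column for reads on either strand they held 1 count in each library, all of it on Mir299a, because a read under a pair of overlapping genes is ambiguous there. Mir380, Mir376a, Mir539 and Mir409 were at 0 in that column. At members without a partner the column for the opposite strand held 0 counts in both libraries.

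The array was set against the 23 other microRNA genes between Dlk1 and Dio3. Those genes held 11.1% and 11.4% of assigned counts, a mean of 11.2% ± 0.184, so the array exceeded them 1.25-fold in replicate 1 and 1.12-fold in replicate 2. Most of their share came from the 7 genes within Rtl1, at 9.96% ± 0.186. Among them is Mir127, which is antisense to Rtl1 and cuts its transcript. Mir127 alone stood at 75510 CPM ± 2663, above every member of the array, followed by Mir431 at 12545 ± 1119 and Mir434 at 7682 ± 419. The 10 genes before Rtl1 held 1.12% ± 0.0128, and the 5 genes between Rtl1 and the array held only 0.140% ± 0.0140. Without Mir411 the array stood at 0.714 and 0.668 of the other genes, below them in both libraries. Without Mir379 the ratio was 1.05 in replicate 1 and 0.930 in replicate 2, and without Mir487b 1.11 and 0.979. No other single member put the array below the other genes when left out.

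**Figure D3:**
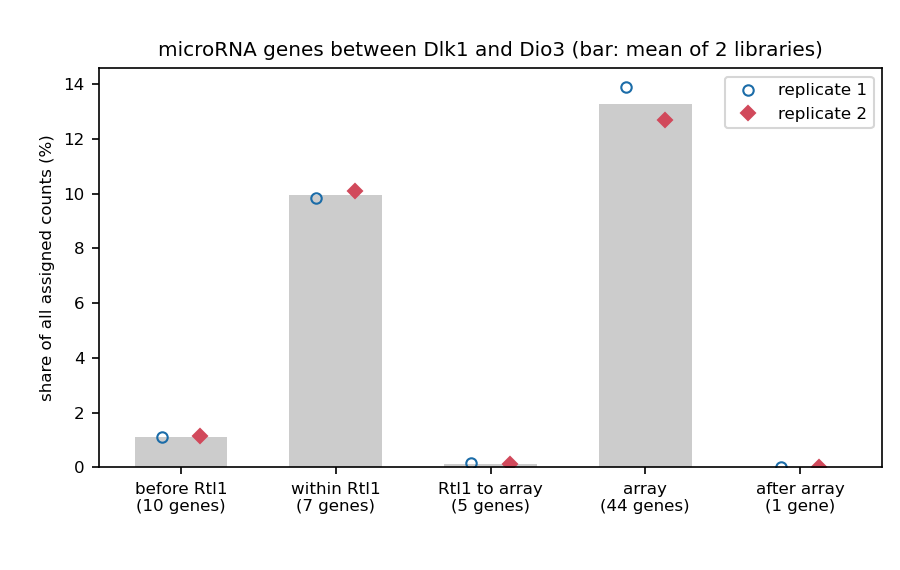
Bars give the mean share of all assigned microRNA counts, in percent, held by each stretch of the domain in genomic order, with a circle for replicate 1 and a diamond for replicate 2. The array and the genes within Rtl1 hold most of it. The 10 genes before Rtl1 hold 1.12%, and the 5 genes between Rtl1 and the array hold 0.140%.

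The libraries of the group differed by more than counting error, in the array as among the genes tested in general. A two-sided exact binomial test on the counts, with library sizes scaled by TMM (trimmed mean of M-values) and Benjamini-Hochberg adjustment over all genes, called 50.8% of the 258 genes tested at an adjusted p of 0.05. Of the 33 members tested, 21 were called. The test compares 1 library with 1 library, so it covers counting error and says nothing of the spread among animals. By direction, 19 members were lower in replicate 2, against 31.8% of all genes, and 2 were higher, against 19.0%. As percentages of the 33 members these counts are 57.6% and 6.06%. The median log2 ratio of replicate 2 to replicate 1 was −0.16 over the members and −0.04 over all genes tested. The other microRNA genes between Dlk1 and Dio3 behaved much like the members. Of the 15 tested, 13 were called, 9 lower and 4 higher in replicate 2, with a median log2 ratio of −0.12. The share called also depends on the count level. With the minimum raised to 100 CPM in both libraries, 21 of 32 members were called, against 64.0% of the 178 genes tested.

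The differences were small in size. Of the 33 members, 31 lay within 1.5-fold between the libraries and none reached 2-fold. The median absolute log2 ratio was 0.16 over the members and 0.18 over all genes tested. Members at 1000 CPM or more lay between −0.37 and 0.07. Mir411 was lower in replicate 2 by −0.28 and Mir379 by −0.14, whereas Mir541 at 0.02 was not called. The members higher in replicate 2 were Mir329 at 0.15 (adjusted p = 0.00100, exact binomial test) and Mir382 at 0.07 (7.17e-05).

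A log2 ratio of at least 0.5 in size was called for 3 members. Mir410 had 883 counts in replicate 1 and 442 in replicate 2, a ratio of −0.73 (adjusted p = 3.09e-18, exact binomial test). Mir380 had 1611 and 892 counts, a ratio of −0.59 (adjusted p = 2.50e-22, exact binomial test). Mir376a had 2424 and 1372 counts, a ratio of −0.56 (adjusted p = 5.55e-30, exact binomial test). Mir3072, with 87 and 49 counts, had a ratio of −0.54 and did not pass (adjusted p = 0.0602, exact binomial test). The 3 called members were not neighbours: Mir380 and Mir376a lie upstream of Mirg, apart from each other, and Mir410 lies near the far end of the array.

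**Figure D4:**
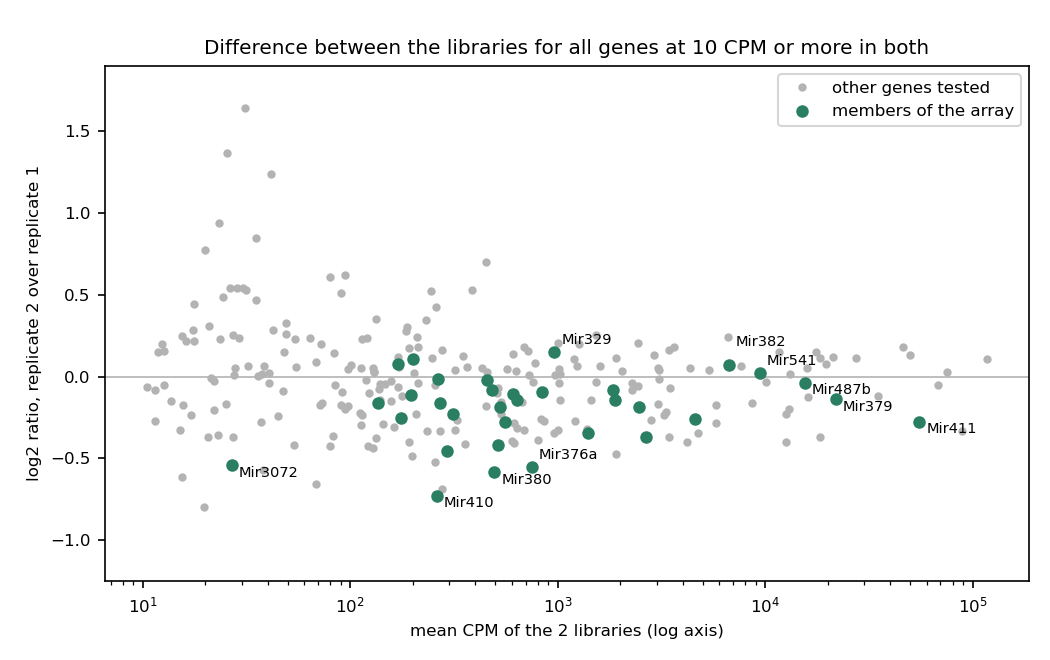
Each point is 1 of the 258 genes tested, by its mean CPM on a log scale (horizontal axis) and its log2 ratio of replicate 2 to replicate 1 (vertical axis); green points are the 33 members and grey points the other genes. Most members lie just below 0, with a median of −0.16, and Mir410, Mir380, Mir376a and Mir3072 are the lowest of them.

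edgeR's exact test with a common dispersion, which corresponds to a coefficient of variation of 12.8% between the libraries, called 0 members. It gave 3 members an unadjusted p of at most 0.05 and called 3 of all genes. That dispersion was estimated from the same 2 libraries that the test compares, so the differences tested are part of the spread, and the count of 0 says nothing on whether the members differ.

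Markers of other cell types also differed between the libraries. The endothelial gene Mir126a held 9.81% of counts in replicate 1 and 8.04% in replicate 2. The fibroblast list of 3 genes, all with counts, stood at 0.478% and 0.375%, and the smooth muscle list of 2 genes at 3.67% and 3.49%, all lower in replicate 2. These sums followed Mir214 and Mir143, which hold nearly all of their lists, whereas Mir199a-2 at 39.7 and 41.6 CPM and Mir145a at 1012 and 1018 CPM were slightly higher there. The leukocyte list of 4 genes, at 0.0977% and 0.105%, and the erythroid list of 2, at 0.0384% and 0.0571%, were higher in replicate 2. Their part in the difference between the libraries of the array was not tested.

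Because several members are best known from neurons, a list of 13 neuron-enriched microRNA genes was read as well. It held 0.0947% of counts in replicate 1 and 0.111% in replicate 2, and 8 of its genes had a count. At 0 were Mir124a-1, Mir124a-2, Mir124a-3, Mir9-1 and Mir9-2. These genes have copies with the same mature sequence, and reads that map to several loci are not counted, so a count of 0 does not show that the microRNA is absent. The list was led by Mir128-1, at 670 and 770 CPM. Its next gene, Mir128-2, went the other way, at 222 and 195 CPM, and was the only gene of the list lower in replicate 2. Mir137 stood at 14.2 and 47.9 CPM, Mir138-1 at 23.7 and 59.2 CPM, and Mir138-2 at 14.2 and 25.8 CPM. The log2 ratio of Mir137, 1.64, was the largest of all genes tested. The sum of the list, held mostly by Mir128-1, differed less between the libraries than these last genes did. The part of neurons in the array's counts was not tested.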

How the data were processed

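MicroRNA reads from both libraries of 1 group were used. The deposited values were raw counts per microRNA gene, 1 table per library, in 3 columns for either strand, own strand and opposite strand. Per the labels and the accompanying deposited notes, build mm10 and annotation M21 were used. The aligner, the counter and the trimming are not given in the sources used here. The 4 lines that name no gene were left out of library sizes and tests. In replicates 1 and 2 they included unmapped reads (25.9% and 18.2% of all reads), reads mapped to several loci (44.0% and 52.1%) and reads outside genes (2.90% and 2.68%).

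The own-strand counts were scaled to CPM over all microRNA genes. Gene positions, exons and introns came from GENCODE vM21, and mature and hairpin sequences from RefSeq (GRCm38.p6). Hairpins were folded with RNAfold 2.7.2. Libraries were compared per gene with a two-sided exact binomial test (scipy 1.17.1 in Python 3.11.15) on genes at 10 CPM or more in both, given TMM sizes over all genes from edgeR 4.0.16 in R 4.3.3. P-values were adjusted by Benjamini-Hochberg over all genes tested, with a threshold of 0.05. Log2 ratios used CPM + 1. DESeq2 1.42.0 gave alternative size factors. The code was tested on simulated data.

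Named by rule were the 12 members with the highest mean CPM, those called with a log2 ratio of 0.5 or more in size, those with no count, those on the minus strand, up to 8 others in genomic order, and 3 other genes of the domain. Further members named were chosen after their values were seen. Members and lists were chosen with earlier results of these data known. Alternatives covered the strand, denominator, low-count filter, pseudocount, library size, test, each library left out, and members with copies.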

Additional observations from a re-analysis of the deposited data

How the results depend on the processing

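The share of the array, 13.3%, was 16.3% with counts on either strand, 15.0% without the most abundant gene in the denominator and 3.61% of all reads, unassigned reads included. The share of its 5 most abundant members, 81.9%, was 87.0% with either strand. With 1 library left out, the array's share ranged from 12.7 to 13.9%, that of the top 5 from 81.7 to 82.2%, and the ratio to the other genes of the domain from 1.12 to 1.25, while 33 members stayed at 10 CPM. The number at 10 CPM was 28 with either strand. That column held fewer assigned counts, 2096446 in place of 2743657 in replicate 1 and 1702939 in place of 2211254 in replicate 2. The higher share of the array there thus came with a smaller denominator. It was not a gain in the array's counts, since the 5 plus-strand members with a partner fell to 1 count in each library.

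The median log2 ratio of the members, −0.16, was −0.14 with either strand, −0.14 at a minimum of 1 CPM, −0.15 at 100 CPM, −0.12 with total counts, −0.18 with DESeq2 size factors and −0.13 with TMM over the tested genes only, an alternative chosen after seeing the data. The median over all genes tested, −0.04, moved with the library sizes too. It was 0.0095 with total counts, −0.05 with DESeq2 size factors and −0.0080 with TMM over the tested genes only. With either strand it was −0.04, at 1 CPM −0.02 and at 100 CPM −0.06. The members called, 21 of 33 against 50.8% of all genes tested, were 17 of 28 with either strand, against 46.7%. They were 18 of 33 with total counts, against 51.6%, and 23 of 33 with DESeq2 size factors, against 50.8%. With edgeR's exact test 0 members were called (0 higher, 0 lower), and 3 of all genes. Mir487b turned to 0.0094 with total counts, where it was not called (adjusted p = 0.483, exact binomial test). It was also not called with TMM over the tested genes, and Mir154 was not called in either setting, whereas Mir541 was called in both. Over the 15 named members, 95 comparisons with an alternative kept direction and call, 1 reversed, 3 lost the call and 2 gained it. That tally covers the 7 alternatives of strand, low-count filter and library size under the binomial test. It leaves out edgeR's exact test, under which no member was called.

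No paired analysis was possible because the series has 1 group. Leaving out members whose mature sequence occurs at another microRNA locus removed 0 members; copies elsewhere in the genome were not searched. Arms, alleles and cell types are not separated by these counts, and members with fewer than 10 counts are limited by depth.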
